A study of Mus musculus with 36 samples.

Results

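The day 7 and day 14 sham libraries of an ATAC-seq series on myocardial infarction in the mouse were compared locus by locus, to describe how far 2 libraries of uninjured cardiomyocyte nuclei lay apart. The members are genomic loci, made by joining all regions of the day 7 and day 14 lists that overlapped by at least 1 bp. The 75932 listed regions of these days, of 122759 regions in the series, gave 44226 loci. Of these, 26554 were listed on both days and have a ratio, 5324 (12.04%) were listed on day 7 alone and 12348 (27.9%) on day 14 alone. Sham tags were summed per locus and day, and the log2 ratio of day 7 over day 14 was centred on its median over the loci listed on both days. A positive value therefore means relatively more tags on day 7.

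The series holds 6 ATAC-seq libraries, since each of days 4, 7 and 14 after surgery has 1 from sham and 1 from border zone nuclei, and 30 RNA-seq samples that were not analysed here. All mice were on the FVB/N background. For both later days the labels name Myh6-MerCreMer;nTnG nuclei, and the breeding text also lists a Sun1/sfGFP allele at Gt(ROSA)26Sor. Mice of these days, sham and infarcted alike, received tamoxifen at 20 mg/kg intraperitoneally on consecutive days from a week before the start. Myh6-MerCreMer is a tamoxifen-inducible Cre under the promoter of a cardiomyocyte myosin heavy chain gene, and nTnG is a reporter that switches its nuclear colour after recombination. Sham nuclei came from the left ventricle of sham-operated mice, and border zone nuclei from the muscle beside the infarct. For each library 50000 GFP-positive nuclei were sorted by flow cytometry. The day 4 libraries came from Cdh5-Cre; Sun1-sfGFP mice with a PCM1 pulldown and another aligner, and no tamoxifen is given for them. The sources used here give neither the age and sex of the mice nor whether nuclei were pooled over animals.

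In ATAC-seq a transposase cuts and tags DNA that is not covered by nucleosomes, so tags pile up at active promoters, enhancers and other regulatory elements. Cardiomyocytes keep a characteristic set of such elements open, many of them at genes of contraction and energy metabolism, and the border zone is known for a partial return to a fetal-like gene programme after infarction. A sham-operated heart has had the surgery without the infarct, and is the usual reference for these changes. Each library pools many nuclei, so fewer nuclei with an open site and fewer tags per nucleus cannot be told apart. Coordinates below are of the mouse build mm9. Genes at the loci and cardiomyocyte marker genes were not assigned here, since the gene tables used are of another build, so the labelled cell type was not checked against its markers.

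The day 14 sham library had more tags in its listed regions. Listed regions held 3858892 sham tags on day 7 and 13936013 on day 14. The median region had 67 and 216 tags. The lists covered 42.0 Mb on day 7 and 48.9 Mb on day 14, which gives 91.8 and 285 sham tags per kb. At the median locus listed on both days the day 14 library had 3.52-fold more tags, and this factor was removed by the centring. With 1 library per condition and day there is no replicate, so no test was made. Intervals are exact (Clopper-Pearson) 95% intervals and cover counting error only. Day after surgery, animal, library and tag number change together between the sham libraries, so their parts in any difference cannot be told apart.

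Over the 26554 loci listed on both days the centred log2 ratio had an SD of 0.58. The quartiles were -0.31 and 0.32, and the percentiles 5 and 95 were -0.89 and 1.01. The SD expected from counting error alone was 0.19, which leaves 0.55 beyond counting error. An absolute log2 ratio of 0.81, which corresponds to the smallest fold in the authors' differential lists, is called the fold threshold here. It was reached by 3749 loci, or 14.12%. Of these, 2100 (7.91%) had relatively more tags on day 7 and 1649 (6.21%) on day 14. In 1480 loci (5.57%) the whole 95% interval lay past it, 1036 (3.9%) with more on day 7 and 444 (1.67%) with more on day 14. Loci past the threshold toward day 14 had a median of 56 day 7 sham tags, against 136.5 toward day 7, which widens their intervals. Which day has more loci past the threshold depends on the scaling. With total tags as the scale, which shifts all log2 ratios down by 0.088, the split was 1731 against 2115. With the 10% of loci that had the most day 4 sham tags as the scale, a shift of 0.13, it was 1586 against 2356. The number past the fold in either direction stayed between 3749 and 3942 under these scalings.

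Much of this spread went with the length that the lists cover. A locus is the union of its regions, and the covered length can differ between days although the locus is the same. Loci with the same covered length on both days numbered 20717 (78.0%), and their ratio had an SD of 0.42, with 5.11% past the fold. In the 2960 loci (11.1%) covered over a greater length on day 7 the median log2 ratio was 0.76, and 47.9% were past the fold, 1402 of them higher on day 7 and 15 higher on day 14. In the 2877 loci (10.8%) covered over a greater length on day 14 the median was -0.73, and 44.3% were past the fold, 30 higher on day 7 and 1244 higher on day 14. Across loci the log2 ratio of tags had a Pearson correlation of 0.64 and a Spearman correlation of 0.57 with the log2 ratio of covered lengths. These loci share both libraries and are not independent, so no p is given. With tags divided by covered length, 1756 loci (6.61%) were past the fold.

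**Figure D1:**
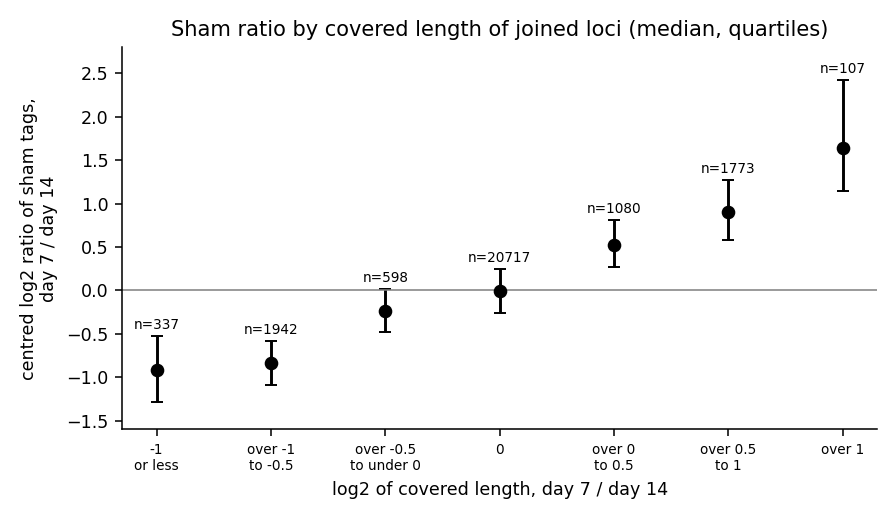
The vertical axis is the centred log2 ratio of sham tags, day 7 over day 14, and the horizontal axis is the log2 ratio of covered length in bins, for the 26554 loci listed on both days. Points are medians, bars reach the quartiles and n is the number of loci; the medians run from -0.91 in the bin most covered on day 14 to 1.64 in the bin most covered on day 7.

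Covered length is equal by definition in regions listed with the same start and end on both days. There were 18170 such regions, which held 1830648 (day 7) and 6410852 (day 14) sham tags, and all ratios over them were centred on their own median. The sham log2 ratio had an SD of 0.43 over these regions, of which counting error accounts for 0.20, leaving 0.37. The quartiles were -0.26 and 0.26. The fold threshold was reached by 953 regions (5.24%), with 606 (3.34%) higher on day 7 and 347 (1.91%) higher on day 14. In 230 regions (1.27%) the whole 95% interval of the ratio lay past the fold, 192 (1.06%) higher on day 7 and 38 (0.209%) on day 14. Regions past the fold toward day 14 had a median of 53 day 7 sham tags, against 92 toward day 7, which widens their intervals. Its part in this split was not tested. Restricting the set further to the 15558 regions with no other listed region within 500 bp gave an SD of 0.41 and 748 regions (4.81%) past the fold. The tags of the libraries across the 18170 regions had a Pearson correlation of 0.90 on the log2 scale.

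The spread between the sham libraries was set beside the other comparisons of the same days over the same 18170 regions. The border zone libraries of day 7 and day 14, which share no library with the sham pair, had a log2 ratio with an SD of 0.56, and 2550 regions (14%) were past the fold. Border zone over sham had an SD of 0.82 on day 7, with 5758 regions (31.7%) past the fold. On day 14 it had an SD of 0.59, with 2748 regions (15.1%) past the fold. The SD of the sham pair was thus the smallest of these comparisons, and its share past the fold was less than those of the injury comparisons on both days. The injury ratios use the same sham libraries, and none of these differences was tested. Keeping regions with the same extent on both days selects for agreement between the days and not between the conditions, so it favours the day pairs in this order. Over the joined loci the order was less clear, since the sham pair had 14.12% past the fold and border zone over sham on day 14 had 14.7%, with SDs of 0.58 for each. The joined loci had to be listed on both days, which leaves out 5324 loci of day 7 alone and 12348 of day 14 alone. This too favours the day pairs, by an amount that was not tested. The joined border zone pair had 22.5% and border zone over sham on day 7 had 31.7%.

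**Figure D2:**
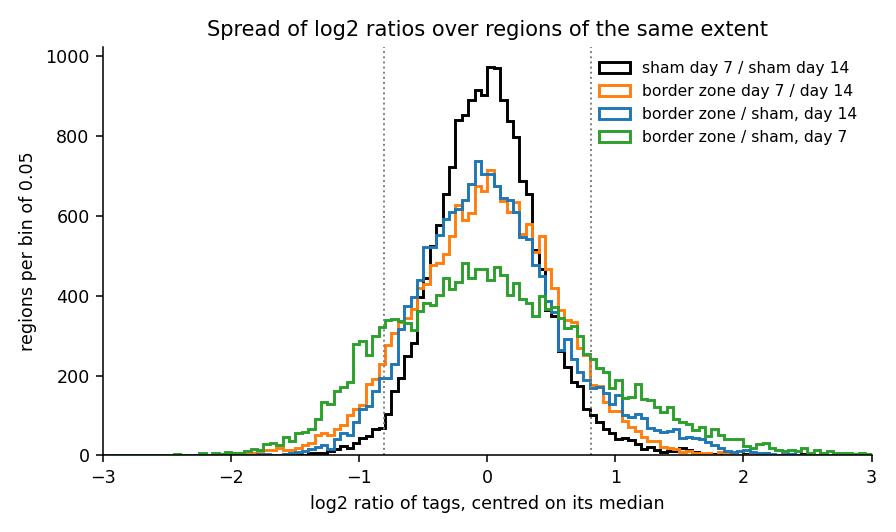
Each outline is the distribution over the 18170 regions of the same extent of a log2 ratio centred on its median, in bins of 0.05, and the vertical axis counts regions per bin. Dotted lines mark the fold threshold in each direction; the sham pair is the narrowest with an SD of 0.43, and border zone over sham on day 7 is the widest with an SD of 0.82.

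The spread of the sham pair did not fall to counting error where tags were many. The regions of the same extent were ranked by the geometric mean of their day 7 and day 14 sham tags and cut into deciles. In the lowest decile, with medians of 32 and 106 tags, the observed SD was 0.51 against 0.31 from counting error. In the highest decile, with medians of 261 and 915 tags, it was 0.41 against 0.099. The part beyond counting error was 0.41 in the lowest decile, smallest at 0.25 in decile 3 and 0.40 in the highest. Decile 3 had medians of 54 and 178 tags. No region was listed whose larger sham or border zone value was under 50 tags on day 7 or 150 on day 14. Whether this minimum lowers the spread there was not tested, and the deciles rank on the tags of the ratio itself. The low value is therefore not read as a change of spread with tag level. With regions ranked by day 4 sham tags, as below, the part was smallest at 0.31 and was 0.35 in the highest decile. Counting error was thus the smaller part of the spread in every decile of either ranking, also in the lowest.

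**Figure D3:**
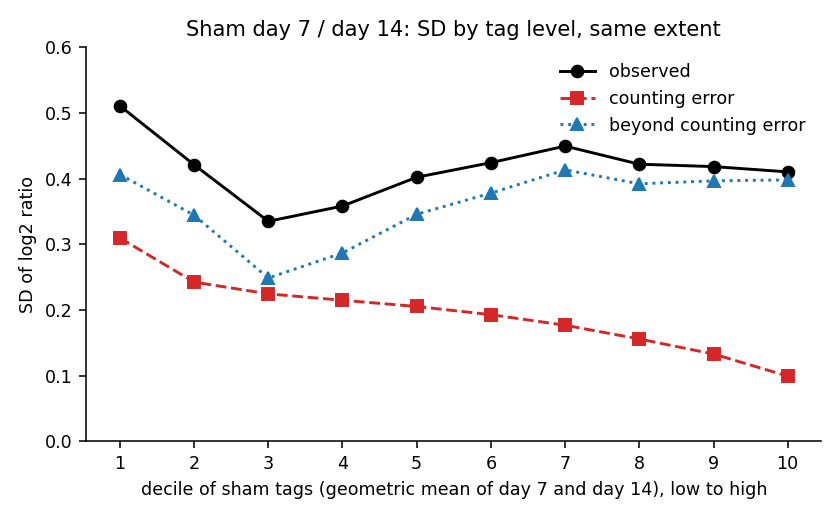
The vertical axis is the SD of the centred log2 ratio of sham tags, day 7 over day 14, and the horizontal axis is the decile of the regions of the same extent by sham tags, from low to high. Circles are the observed SD, squares the SD expected from counting error and triangles the SD beyond it, which ends at 0.40 while counting error falls from 0.31 to 0.099.

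The centre of the ratio also moved a little with the level of a region. To keep the level independent of the ratio, 8381 regions listed with the same extent on all 3 days were ranked by their day 4 sham tags. Their median sham log2 ratio was 0.05 in the lowest decile and -0.13 in the eighth, and -0.01 in the highest. Wider regions leaned to day 7. The median was -0.03 in the 13546 regions of over 500 to 1000 bp, 0.20 in the 651 of over 1500 to 2000 bp and 0.29 in the 51 of over 3000 bp. The border zone ratio had medians of -0.03, 0.19 and 0.26 in the same width classes, so both conditions shifted alike.

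Regions that differed between the sham libraries often differed the same way between the border zone libraries. Over the regions of the same extent the sham and border zone log2 ratios of day 7 over day 14 had a Pearson correlation of 0.49 and a Spearman correlation of 0.45. The ratios share no library, but a day's sham and border zone libraries share its region list and may share other handling, whose part was not tested. Of the 606 regions higher on day 7 in sham, 555 (91.6%) had a border zone ratio of the same sign and 337 (55.6%) were past the fold in that direction. Over all 18170 regions 6.31% were past the fold in that direction in the border zone. Of the 347 regions higher on day 14 in sham, 264 (76.1%) had the same sign in the border zone and 92 (26.5%) were past the fold, against 7.72% of all regions. In the opposite direction 9 and 4 of these regions were past the fold in the border zone.

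**Figure D4:**
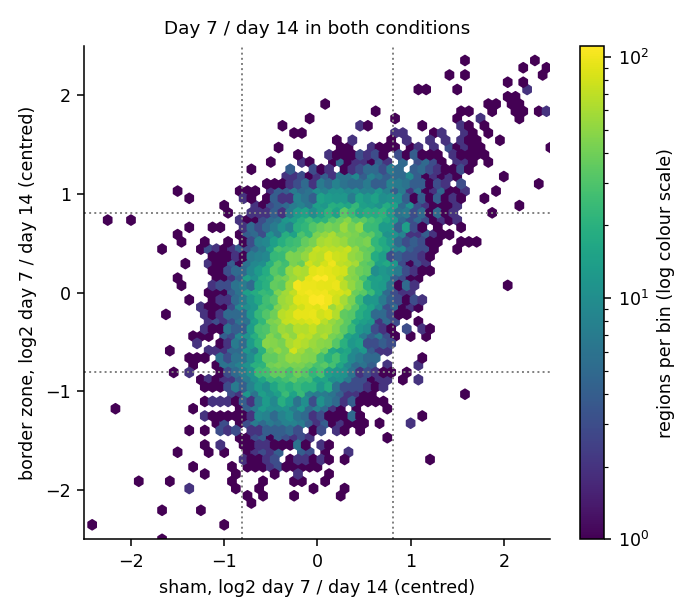
The horizontal axis is the centred log2 ratio of day 7 over day 14 in sham and the vertical axis the same ratio in the border zone, over the regions of the same extent, with colour for the number of regions per bin on a log scale. Dotted lines mark the fold threshold; the cloud runs from lower left to upper right with a Pearson correlation of 0.49, and 9 regions lie outside the plotted range of -2.5 to 2.5.

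The authors' own calls of injury differences were then used to sort the regions of the same extent. The sham ratio and the calls share the sham libraries, so part of each shift below is fixed by the way the calls were made, and the values are a description. The 11200 regions listed as non-differential on both days had a median sham log2 ratio of 0.02, and 3.71% were past the fold. The 3307 regions that were sham-higher on day 7 and non-differential on day 14 had a median of -0.03 in sham and -0.64 in the border zone, and 2.06% were past the fold in sham. Their tags were a median of 78 and 298 in sham and 27 and 168 in the border zone on days 7 and 14. For this class the border zone ratio differed between days and the sham ratio lay near its centre.

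The other classes that changed their call behaved differently. The 899 regions that were border zone-higher on day 7 and non-differential on day 14 had medians of -0.26 in sham and 0.56 in the border zone, and 9.23% were past the fold in sham. The 411 regions that were non-differential on day 7 and border zone-higher on day 14 had medians of 0.41 in sham and 0.01 in the border zone, and 22.9% were past the fold in sham. The 257 regions that were non-differential on day 7 and sham-higher on day 14 had medians of -0.29 in sham and 0.31 in the border zone, and 13.2% were past the fold in sham. In the 11 regions called sham-higher on day 7 and border zone-higher on day 14 the medians were 1.11 and -0.83, and 81.8% were past the fold in sham. In both classes with a border zone call on day 14 alone the median sham ratio was thus above 0, while the border zone median was near 0 in the larger class and below 0 in the smaller.

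Regions with the same differential call on both days also had sham medians away from 0. The 1321 regions that were border zone-higher on both days had a median sham ratio of 0.16 and a border zone ratio of 0.51, with 17.1% past the fold in sham. They were low in tags, with sham medians of 34 and 108 and border zone medians of 62 and 181 on days 7 and 14. At these medians the border zone value alone reached the list minima of 50 and 150 tags. Sham medians were also under a minimum in other classes, at 38 on day 7 for the 899 regions and at 48 and 128 for the 411. What this filter adds to the sham shifts and shares was not tested. The 763 regions that were sham-higher on both days had medians of -0.17 in sham and -0.27 in the border zone, with 3.01% past the fold in sham.

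**Figure D5:**
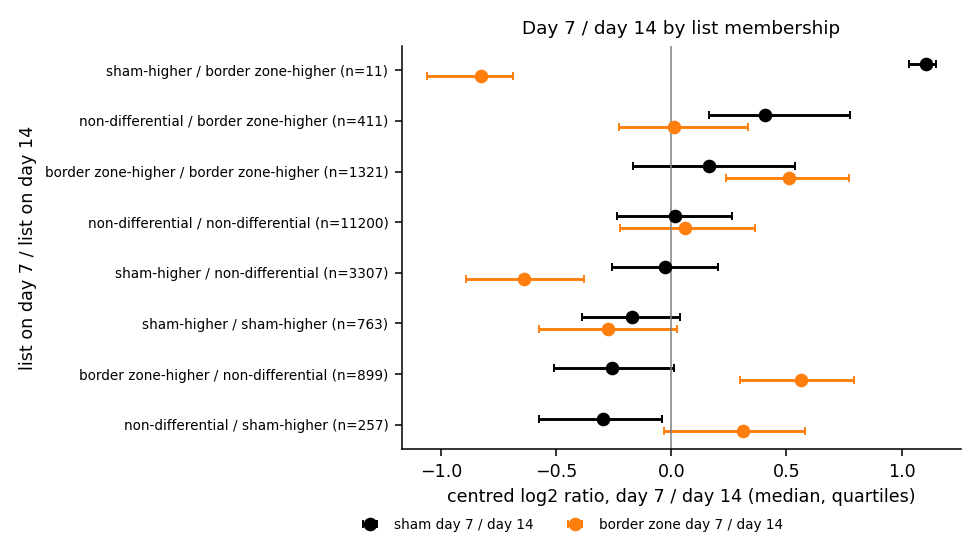
The horizontal axis is the centred log2 ratio of day 7 over day 14, and the vertical axis sorts the regions of the same extent by the authors' list on day 7 and on day 14, with n regions. Points are medians and bars reach the quartiles, black for sham and orange for the border zone; the medians of sham and border zone lie on opposite sides of 0 in the class at the top and in both classes at the bottom.

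The 8 loci per direction whose 95% interval lay farthest from no difference were examined singly. Among those higher on day 7, a locus on chromosome 15 from 85538751 to 85541750 had 655 sham tags on day 7 and 81 on day 14. Its border zone tags were 510 and 131. The centred sham ratio was 28.5-fold (22.6 to 36.3), and the border zone ratio was 15.3-fold in the same direction. The regions at this locus covered 3000 bp on day 7 and 1000 bp on day 14, and per kb the sham ratio was 9.49-fold. The day 4 sham library had 248 tags over 3000 bp there. Both conditions were high on day 7 at this locus, by less per kb than in summed tags.

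A locus on chromosome 10 from 95539751 to 95541250 had the most tags of those higher on day 7, with 4675 sham tags on day 7 and 1543 on day 14. Its border zone tags were 1880 and 417, and the day 4 sham library had 295. The sham ratio was 10.7-fold (10.1 to 11.3), or 7.11-fold per kb, and the border zone ratio was 17.7-fold. The locus was in the sham-higher list on day 14 and in both the sham-higher and non-differential lists on day 7. Day 7 was the high day in sham and in the border zone, and day 4 had the fewest sham tags of the 3 days, with no scaling for depth.

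The other loci higher on day 7 lay on chromosomes 7, 8, 14 and 17, with ratios of 12.8-fold to 24.8-fold. The lowest of these, on chromosome 8 from 19992751 to 19998250, was 2.33-fold per kb and 3.49-fold with listed regions within 500 bp joined. At chromosome 7 from 38972251 to 38977250 the sham tags were 381 over 5000 bp on day 7 and 54 over 1000 bp on day 14, a ratio of 24.8-fold in sham and 22.3-fold in the border zone. At chromosome 14 from 7720751 to 7722750 they were 564 and 137, a ratio of 14.5-fold in sham and 3.60-fold in the border zone. On day 7 this locus was sham-higher and on day 14 border zone-higher in the authors' lists. In both cases the covered length was greater on day 7 as well.

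Among the loci higher on day 14, chromosome 3 from 95464251 to 95473750 had 46 sham tags on day 7 and 4011 on day 14. There were 68 and 3039 border zone tags. The ratio was 24.8-fold (18.5 to 33.9) in sham and 11.4-fold in the border zone. The covered length was 1000 bp against 9000 bp, and per kb the sham ratio was 2.75-fold. At chromosome 7 from 133939251 to 133943750 the sham tags were 38 and 3105, a ratio of 23.2-fold, or 5.80-fold per kb. At chromosome 2 from 180135251 to 180140750 they were 260 and 8081, a ratio of 8.83-fold, or 3.21-fold per kb, and 18.6-fold in summed tags when listed regions within 500 bp are joined. The day 7 list holds only a short stretch of these wide loci, so most of their day 14 length has no day 7 value.

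Of the 16 loci named by this rule, 14 had a greater covered length on the day with more tags. All 16 had a border zone ratio past the fold in the same direction. Over all 26554 loci the border zone ratio was past the fold in 2995 toward day 7 and in 2977 toward day 14. Sham and border zone tags of a day were summed over the same listed regions, so covered length enters both ratios. Per kb, 15 of the 16 sham ratios remained past the threshold. The exception, on chromosome 2 from 76812751 to 76816750, was 6.69-fold in summed tags and 1.67-fold per kb. The locus on chromosome 10 from 80670251 to 80673750 went from 7.39-fold to 21.6-fold higher on day 14 when regions within 500 bp were joined.

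The remaining pair with equal lengths was formed by touching loci. On chromosome 14 the locus from 119405751 to 119406750 had 565 and 114 sham tags on days 7 and 14, 17.4-fold higher on day 7. The adjoining locus from 119406751 to 119407750 had 77 and 2293 sham tags, 8.46-fold higher on day 14. The border zone tags were 427 and 149 in the former and 22 and 1515 in the latter. Summed over both, the sham tags were 642 and 2407, a centred log2 ratio of -0.09. Day 4 listed the whole stretch as 1 region of 2000 bp with 595 sham tags. The tags of this stretch were thus listed on different sides of a shared border on the different days.

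Such splits were rare but not unique. Among the joined loci 641 pairs touched, and in 69 of these both loci were past the fold, 24 of them in opposite directions. In 22 of the 24 pairs the summed tags were below the fold. Between neighbouring regions of the same extent the sham ratios had a Pearson correlation of -0.07 in 264 touching pairs, 0.17 in 605 pairs up to 1 kb apart and 0.13 in 3157 pairs up to 10 kb apart. It was 0.06 in 4777 pairs over 100 kb to 1 Mb apart. The ratio of a region was thus at most weakly related to that of its neighbour, at every distance compared.

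The same naming was applied to the 18170 regions of the same extent, a choice made after the values were seen. Of its 16 regions, 7 had no other listed region within 500 bp. A region on chromosome 1 from 58087751 to 58088750 had 268 sham tags on day 7 and 94 on day 14. There were 149 and 134 border zone tags. The ratio was 10.1-fold (7.996 to 12.98) in sham and 4.35-fold in the border zone. A region on chromosome 1 from 104524251 to 104525250 had 130 and 2407 sham tags, and 123 and 2443 in the border zone. It was 5.20-fold (4.36 to 6.25) higher on day 14 in sham and 5.07-fold in the border zone, and the day 4 sham library had 97 tags there. The day 7 libraries were thus close to each other at this region, and so were the day 14 libraries.

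On chromosome 17 the region from 93445251 to 93446250 had 68 and 890 sham tags and 125 and 1847 border zone tags, 3.68-fold and 3.78-fold higher on day 14. On chromosome 9 the region from 3258251 to 3259250 had 88 and 894 sham tags and 89 and 1061 border zone tags, 2.85-fold and 3.05-fold higher on day 14. These regions were listed as border zone-higher on both days and as non-differential on both days, respectively. At each of them a difference between days was of nearly the same size in sham and border zone. On chromosome 18 the region from 11288251 to 11289250 was 7.12-fold higher on day 7 in sham but 1.78-fold in the border zone. The remaining regions without such neighbours were on chromosome 18 from 48169751 (5.94-fold and 5.47-fold, day 7 higher) and chromosome 7 from 107613251 (2.94-fold and 3.76-fold, day 14 higher). Of the other 9 regions, which had a listed neighbour within 500 bp, 7 fell below the fold when such neighbours were joined. Over all 18170 regions 6.31% were past the fold and higher on day 7 in the border zone, and 7.72% higher on day 14. All 16 regions named here had the same direction in the border zone, and 15 were past the fold there. The exception, on chromosome 16 from 37788251 to 37789250, had 904 and 454 sham tags but 170 and 513 border zone tags, a ratio of 7.09-fold in sham and 1.30-fold in the border zone.

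On a fixed grid of 100 kb, 377 windows held at least 8 loci listed on both days, 3640 loci in all. The window medians of the sham log2 ratio had an SD of 0.28, 222 of them were above 0 and only 2 were past the fold. A window on chromosome 5 starting at 14900001 had a median of 2.19 over 11 loci, 10 of them past the fold and higher on day 7, and the border zone median was 1.91. Its sham tags were 3526 on day 7 and 3087 on day 14, with 51 kb covered on day 7 and 28.5 kb on day 14, and the log2 ratio of the summed tags per kb was 1.17. A window on chromosome 8 starting at 19800001 had a median of 1.46 over 8 loci and 2.34 in the border zone. Over its 2 regions of the same extent the sham median was 0.84, and with regions within 500 bp joined it was 2.63. These windows stood apart in sham and border zone alike, and in both the day 7 lists covered more sequence.

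The next windows lay much closer to the centre. On the day 7 side, windows on chromosome 5 from 17300001 and chromosome 2 from 76700001 had sham medians of 0.77 and 0.73. Over their regions of the same extent, 5 and 2 in number, these were 0.30 and 0.13. On the day 14 side the lowest medians were -0.70 on chromosome 6 from 118800001 and -0.58 on chromosome 19 from 53700001. The regions of the same extent in these windows, 6 and 2 in number, had medians of -0.05 and -0.29. Over the 377 windows the sham and border zone medians had the same sign in 255 (67.6%).

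By chromosome the autosomes differed little. Their median sham log2 ratio ranged from -0.07 on chromosome 17 to 0.04 on chromosome 7. Chromosome X had a median of 0.19 over 253 loci in sham and 0.26 in the border zone, and over its 184 regions of the same extent these were 0.11 and 0.14. The 47 loci on random and unplaced contigs, where repeated sequence is common, had medians of 0.37 in sham and 0.77 in the border zone. Of these, 15 were past the fold and higher on day 7, and 1 was higher on day 14, where 7.91% and 6.21% of all loci were.

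Loci listed on 1 of the days alone have no ratio. Over all 3 lists of a day, the larger of the listed sham and border zone values was never under 50 tags on day 7 or 150 on day 14. The lists as analysed here may lack some regions, which would add to these loci. Loci listed on day 7 alone had a median of 45 sham tags (quartiles 31 and 57), and 38.4% were border zone-higher. Counted per region, this list made up 17.5% of the 34952 entries of day 7. Loci listed on day 14 alone had a median of 159 tags (quartiles 123 and 190), and 16.0% were border zone-higher. The matching share per region was 13.4% of the 40980 entries of day 14, much nearer to that of its 1-day loci. Loci on both days had medians of 79 and 305 tags. Sham tags alone were counted and rescaled to the other day by the median ratio of loci listed on both days. Of the day 7 loci, 2839 (53.3%) then came to at least 150 tags and 536 (10.1%) to at least 2 times that. Of the day 14 loci, 4093 (33.1%) came to at least 50 tags and 454 (3.68%) to at least 2 times that. Loci listed on 1 day thus had fewer tags at the median than those on both. A region of the other day touched 552 (10.4%) and 416 (3.37%) of them.

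The day 4 sham library gives a scale for how close the later sham libraries were. Over the 8381 regions with the same extent on all 3 days, day 7 over day 14 had an SD of 0.40 and 4.18% past the fold. The border zone pair had 14.08% past the fold over these regions. Day 4 over day 7 had an SD of 0.65 and 18.4% past the fold, and day 4 over day 14 had 0.61 and 14.7%. Mouse line, enrichment of nuclei, tamoxifen and aligner change with day 4, and cannot be told apart from the day. The day 7 and day 14 sham libraries, which shared mouse line, tamoxifen, sort and aligner, were the closest sham pair.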

How the data were processed

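ATAC-seq region lists of days 7 and 14 were used, 3 per day. Per the labels and the submitters' processing notes, BWA aligned the reads of these days to mm9 (Bowtie2 those of day 4), and bedtools was used. The sources used here give no versions, region caller or thresholds. Sham tags are deposited counts per the file headers. Border zone tags are a deposited signal that the authors scaled to the sham library, per the file headers. It was brought back to whole tags from the values: within a tolerance of 0.001%, 98.0% of values were a whole number times 1 factor of the day and 1.96% were sums of such terms.

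Lists were matched to samples through column names and labels, and 0 unmapped columns were used. Total sham tags in listed regions were 3858892 (day 7) and 13936013 (day 14). The depth outside these regions is unknown. Tags carry no molecular identifier and may repeat a molecule.

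Regions were joined at an overlap of 1 bp, and log2 ratios of summed tags were centred on their median. Counting error came from the delta method for the SD and from exact Clopper-Pearson 95% intervals for single loci (python 3.11.15, numpy 2.4.6, pandas 2.3.3, scipy 1.17.1). The scripts were tested on simulated data. With 1 library per condition and day no test was made. The fold threshold is 1.75, the smallest fold of the differential lists. Named loci were the 8 per direction whose interval lay farthest from 0, at most 1 per 100 kb. Named windows were the 5 per direction with the largest median among 100 kb windows with at least 8 loci. The members, lists and fold were chosen with earlier results of these data known. Planned gene and marker lists were not used, since no mm9 annotation was at hand. Alternatives covered scaling, joining, length, tag minimum, fold and subsets of loci.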

Additional observations from a re-analysis of the deposited data

Results flagged for a closer look

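A window on chromosome 10 from 68700001 to 68800000 had a median centred log2 ratio of day 7 over day 14 of 0.70 in sham over 9 loci, all of them above 0 and 3 of them past the fold threshold. The border zone median was -0.03 over the same loci. Over its 3 regions of the same extent the sham median was 0.23. It was the named window in which the medians of the conditions had opposite signs, although the border zone median lay close to 0. This difference was not tested. Its sham tags were 1464 on day 7 and 3218 on day 14, its border zone tags 813 and 2703, and the covered length was 14 kb and 13.5 kb.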

How the results depend on the processing

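The share of loci past the fold threshold between the sham libraries was 14.12%. It moved to 14.8% when scaled on the loci with the most day 4 tags, 5.24% over regions of the same extent, 17.6% with midpoints within 250 bp, 6.61% per covered length, 12.9% with at least 100 tags on each day, 14.8% with a larger value of at least 50, 12.7% over loci non-differential on both days and 8.77% at a fold of 2. Settings chosen after seeing the data gave 15.1% with regions within 500 bp joined, 5.11% at the same covered length and 4.81% without neighbours within 500 bp. Of the loci past the fold, 56.0% were higher on day 7, against 45.0% when scaled on total tags and 40.2% when scaled on the loci with the most day 4 tags. With at least 100 tags on each day it was 81.8%, a minimum that is stricter for day 7, which had fewer tags. The border zone share of 22.5% became 16.9% over non-differential loci and, chosen after seeing the data, 14.0% over regions of the same extent, 15.5% per covered length and 14.0% without neighbours. Border zone over sham on day 14 went from 14.7% to 15.1% over regions of the same extent. The chromosome 14 locus from 119405751 turned to a log2 ratio of -0.079 when joined with its neighbour. Of the values recomputed for the named loci and windows alone, 95 were counted as unmoved, 20 as moved and 1 changed sign. Windows were judged by the spread of their loci, which is not an error of the median. Large shifts of a window median could thus count as unmoved. The window on chromosome 6 from 118800001 was so counted, with -0.70 over all its loci and -0.05 over its regions of the same extent. No paired analysis was possible because each condition and day has 1 library, and for the same reason no replicate could be left out. Low tags on day 7 limit the lowest decile of regions, where counting error alone gave an SD of 0.31.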

Other observations

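Some loci listed on 1 day alone had many tags, and were singled out after their values were seen. The largest value among the loci of day 14 alone was 14181 sham tags on chromosome 14 from 55587751 to 55590250, next to a touching day 7 region with 87 tags. Chromosome 13 from 85265751 to 85267750 followed with 7145 tags and chromosome 14 from 55558251 to 55560250 with 6509 tags. Among the loci of day 7 alone, a locus on the random contig of chromosome 9 had 4518 sham tags, and chromosome 19 from 5828251 to 5841750 had 3538 tags over 13500 bp. No value of the other day was analysed here for these loci, so they carry no ratio. The lists as analysed here may lack some regions, so a locus on 1 day alone is not shown to be closed on the other.

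Chromosome Y had 1 locus on both days, with a centred log2 ratio of 2.08 in sham and 1.91 in the border zone. Its sham tags were 304 on day 7 and 254 on day 14.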
